A study of Ovis aries with 32 samples.

Results

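The response of the premature fetal cerebral artery to phenylephrine (PHE), a drug that activates alpha-1 adrenergic receptors, was taken from 8 of the 32 arrays of the series. These were the arrays whose titles put them at 96 days of gestation, 4 without the drug and 4 after PHE, and no measured value entered the choice. The tissue was the middle cerebral artery of fetal sheep, cleaned of adipose and connective tissue and cut into short segments, which were exposed in a bath to 10 uM PHE for 30 minutes. Fetuses near term, lambs just born and adults had the same exposure in the study, and single-colour sheep oligonucleotide arrays measured the mRNA.

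Per the methods, 4 animals entered each experiment. The sources used here do not say whether an untreated and a PHE segment with the same number came from the same animal, whether segments were pooled, or how long untreated segments stayed in the bath. A segment holds smooth muscle, endothelium and other cells of the wall, so a change of mRNA in a cell type and a change in the number of its cells cannot be told apart. The newborn lambs (12 hours by the labels, while the methods state an age of some days) and adult sheep (2 years by the labels) served below only to show where the premature response differed, again with 4 untreated and 4 PHE arrays each.

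Norepinephrine released from perivascular nerves, like PHE, acts on alpha-1 receptors of cerebral arterial smooth muscle, which couple through Gq to phospholipase C, calcium release and protein kinase C, and the artery contracts. Sustained receptor activation also reaches the nucleus through calcium, MAP kinases and cyclic AMP dependent factors, which switch on immediate early genes within minutes. Products of those genes, together with NF-kB, then drive a later set of cytokines, enzymes and feedback inhibitors.

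The 75th percentile of the spot intensity lay between 638 and 892 on the untreated and between 760 and 985 on the PHE arrays, 8.39 to 13.1 times the background, and 65.8% to 71.2% of the probes were well above background. Levels below are log2 values relative to that percentile of the same array, so that 0 stands for a spot as bright as the 75th percentile. A gene was called when its limma adjusted p was under 0.05 and its change at least 1.5-fold. Of 9745 genes and unnamed probes tested, 2866 were called (29.4%), 1390 of them higher with PHE (14.3%) and 1476 lower (15.1%). The median change over all that were tested was -0.09. Of all genes with a symbol 63.0% were called, with 37% of those named independently of the study's tables and 70.1% of those named through them. Counts of the gene lists below are to be read against these shares.

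The rises were the larger changes. Among the called genes, 248 rose and 42 fell by at least 4-fold as fitted, and the median size of a called change was 1.88-fold. Of these changes, 37 rises had no detection on untreated arrays and 14 falls none on PHE arrays, so their fitted sizes are not bounds. Among genes above background on all 8 arrays, 176 rose and 17 fell by at least 4-fold. Cytokines and chemokines, immediate early transcription factors, MT1A, MT2A, NF-kB inhibitors and the inducible cyclooxygenase were among the larger rises. Of 37 zinc finger proteins 25 were lower and 6 higher, and of 12 mitochondrial ribosomal proteins 9 were lower and none higher, nearly all of them named through the study's tables. In the plot of group means the rises spread far above the diagonal and the falls form a narrower band below it.

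**Figure D1:**
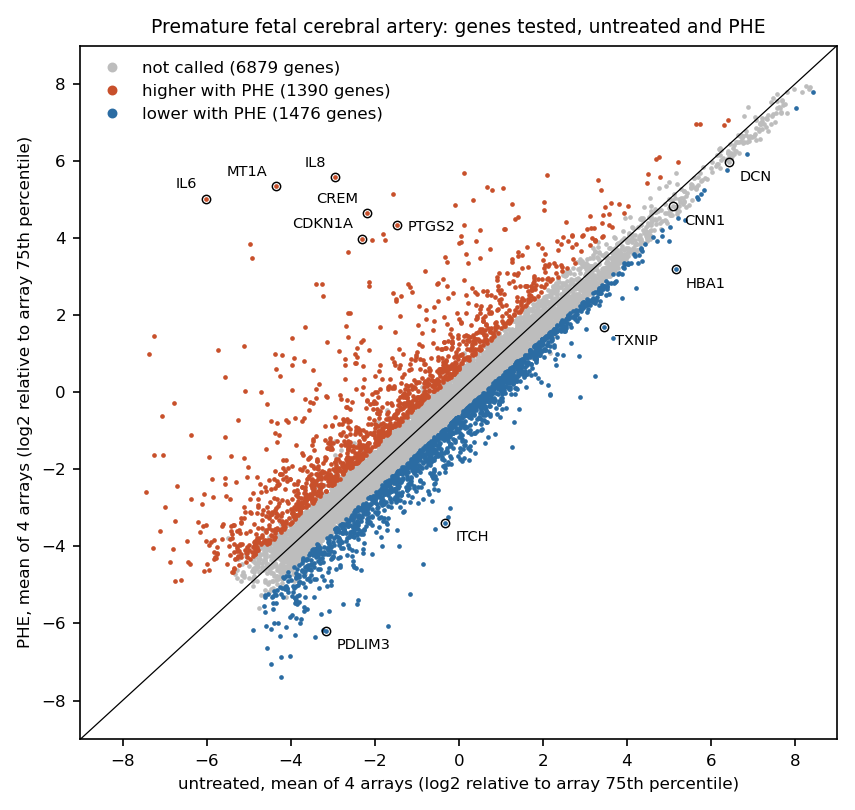
Each point is 1 of 9745 genes or unnamed probes, with its mean over the 4 untreated arrays on the x axis and over the 4 PHE arrays on the y axis, both in log2 relative to the array's 75th percentile; the line marks equal levels. Red points were called higher (1390) and blue points lower (1476), IL6 and MT1A lie farthest above the line among the labelled genes, and means of dim spots are drawn as measured, not at their bounds.

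Interleukin 6, an acute phase cytokine, was not detected above background on any untreated array, where it read -6.47, -6.18, -6.19 and -5.22, and reached 4.71, 5.68, 4.98 and 4.73 on the PHE arrays. With untreated values lifted to the dimmest detected signal of their array, as was done for every gene detected on no array of a group, IL6 was at least 1123-fold higher (limma adjusted p 3.7e-08). All PHE arrays stood far above all untreated arrays. IL1B, a cytokine of activated macrophages and vascular cells, was above background on 2 of 4 untreated arrays, with -5.06, -4.94, -4.77 and -5.10 there and 3.85, 4.45, 3.99 and 3.11 with PHE. Its level rose by 8.82 (SE 0.25, limma adjusted p 3.9e-08), and the groups lay far apart. Tumour necrosis factor (TNF), above background on 1 untreated array, read -5.25, -6.54, -5.35 and -5.75 untreated and 1.12, 1.07, 2.04 and 0.13 with PHE, a rise of 6.81 (SE 0.40, limma adjusted p 3.2e-06). PHE array 3 was the highest and PHE array 4 the lowest in TNF, and all PHE values stood far above the untreated ones. Where only some arrays of a group detected a gene, undetected spots entered as measured, here and below, so the size of its change is approximate.

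All 10 cytokines tested were called, 9 higher and 1 lower, with a median change of 5.11, or 3.95 with genes detected in only 1 group at their bound, beside -0.09 over all genes. Only 10 of the 22 cytokines with a probe passed the background filter. IL6, IL1A, CSF2, IL1B and TNF passed it through the PHE arrays alone. All 57 tested genes that no untreated array detected were called higher, so the count and median partly follow from the filter. Of the 7 cytokines named independently of the study's tables, all were higher. IL1A, which shares the receptor of IL1B, was at least 95.1-fold higher, and CSF2, a growth factor for granulocytes and macrophages, at least 5.79-fold higher, both from untreated arrays with no signal well above background. With normexp background correction CSF2 stood at 1.02 and was not called. That alternative, here and below, added an offset of 50 to each intensity, which by construction shrinks the log2 changes of dim spots. The anti-inflammatory cytokine IL10 rose by 5.37 in log2. IFNA1, an antiviral interferon, was the member that fell, by 1.54-fold (limma adjusted p 0.00458). Its call rested on single arrays, being lost without untreated array 3 (log2 -0.56), untreated array 4 (-0.57) or PHE array 1 (-0.58), each just under the fold threshold.

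Among 10 chemokines, 8 were higher, none was lower and the median change was 3.49. IL8, the neutrophil attractant, was above background on all arrays and read -2.84, -3.01, -3.27 and -2.70 untreated and 5.63, 6.0, 5.71 and 4.96 with PHE. This 370.0-fold rise (limma adjusted p 3.3e-08) was the largest of the named genes detected on all 8 arrays, and no array of a group came near the other group. CCL4L1, a macrophage inflammatory protein, was above background on 2 untreated arrays and rose by 8.39 (SE 0.21, limma adjusted p 3.3e-08). CCL2, which attracts monocytes, rose 51.5-fold and CXCL1, a further neutrophil attractant, 7.51-fold. CXCL5 rose by 5.71 in log2 and CXCL16, a membrane-bound chemokine, 7.73-fold.

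Receptors and antagonists moved in the same direction but less: of 22 tested, 18 were higher and 1 lower, with a median of 1.55, or 1.33 at the bounds. The interleukin 1 system rose on both sides, with the signalling receptor IL1R1 7.91-fold higher and the natural antagonist IL1RN at least 28.7-fold higher, since no untreated array detected IL1RN. With normexp correction IL1RN stood at 2.41 and was not called. The oncostatin M receptor OSMR rose 6.64-fold and TNFRSF12A, the receptor of the cytokine TWEAK, 8.78-fold. CCRL2, a chemerin-binding receptor, fell by 2.71-fold and was above background on 3 of 4 PHE arrays.

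Every one of the 21 tested members of the NF-kB pathway was called, 20 higher and 1 lower, with a median of 1.73. The share called was 29.4% over all genes and 70.1% over genes named through the study's tables. Only 3 members were named independently of those tables, and all 3 were higher. NFKBIA, the inhibitor that holds NF-kB in the cytoplasm and is itself an NF-kB target, read 1.10, 1.02, 0.94 and 1.20 untreated and 5.02, 5.80, 5.27 and 5.11 with PHE. It rose 18.8-fold (SE 0.17 in log2, limma adjusted p 2.6e-07), and each group spanned less than 1 log2 unit. The nuclear inhibitor NFKBIZ rose 41.3-fold, the subunit RELB 16.4-fold and the kinase IKBKB, which marks the inhibitor for breakdown, 5.82-fold (log2 2.54, against 0.76 on its other probe). MALT1, a protease that passes antigen receptor signals to NF-kB, was the member that fell, by 2.03-fold (limma adjusted p 0.00331).

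The JAK, STAT and interferon list was mixed, with 13 of 26 members higher, 5 lower and 8 not called, and a median of 0.70. Its share called, 69.2%, was near the 70.1% of all genes named through the study's tables. Of the 6 named independently only IRF1 was called, and their median was 0.01. IRF1, a transcription factor of the interferon response, read -3.02, -3.08, -3.50 and -3.38 untreated and 2.76, 3.09, 3.26 and 2.11 with PHE, and rose 66.2-fold (limma adjusted p 2.6e-07). Its groups were far apart, with PHE array 4 the lowest of the treated arrays. SOCS3, which inhibits JAK signals, rose by 4.53 in log2 from 1 untreated array that detected it. IRF8, a factor of myeloid cells, rose 9.79-fold, the phosphatase PTPN2, which switches off JAK signals, 5.50-fold and the peptide transporter TAP2 4.61-fold. The members that fell were the kinase PIM2 (-1.38), the nuclear body protein SP110 (-1.36), the ADP-ribosyltransferases PARP9 (-1.07) and PARP14 (-1.03), and IFI35 (-0.68), all in log2. IFI35 was lost without PHE array 2 (log2 -0.54), and the groups of SP110 overlapped.

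Genes by which a vessel wall holds leukocytes and controls clotting rose in 10 of 12 tested, fell in 1 and had a median of 1.71. P-selectin (SELP), which catches rolling leukocytes, read 0.17, 0.52, 1.04 and -0.36 untreated and 4.59, 5.80, 4.93 and 4.64 with PHE, and rose 25.1-fold (limma adjusted p 1.1e-05). The untreated arrays of SELP were spread but stayed below all PHE arrays. ICAM1, an adhesion molecule of endothelium, rose 15.4-fold, the urokinase receptor PLAUR 26.0-fold from a level that 2 untreated arrays detected, and the pattern recognition protein PTX3 12.5-fold. Antithrombin (SERPINC1) fell by 2.88-fold (limma adjusted p 0.00389), with 1 PHE array still above background.

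Leukocyte markers were mixed. Of 9 leukocyte markers tested, 5 were higher and none lower, with CD14 the most abundant, and their summed level, in multiples of the array's 75th percentile, read 5.18, 5.22, 5.02 and 5.74 untreated and 6.94, 9.32, 6.15 and 8.06 with PHE. CD68, of macrophages, rose 1.88-fold, CD14 itself 1.97-fold, CD53 3.72-fold (detected on 3 untreated arrays) and LCP1 3.75-fold (detected on 1), while the T cell marker CD3G, at 0.35, stayed under the fold threshold. The 3 members named independently of the study's tables, FCER1G (-0.58), TYROBP (-0.51) and CD3E (-0.51), were not called. With normexp background correction CD68 (0.48), CD53 (0.53) and LCP1 (0.02) lost their calls, and CD68 and CD14 lost theirs with the spread taken from all 32 arrays. Both tested neutrophil markers were higher, S100A9 by 9.68-fold and CLEC4E by at least 4.63-fold. CLEC4E, detected on no untreated array, passed the background filter through the PHE arrays alone, and all 57 such genes were called higher. Their summed level, most of it S100A9, read 0.0768, 0.0676, 0.107 and 0.0622 untreated and 0.652, 1.14, 0.655 and 0.560 with PHE. The single mast cell marker tested, TPSB2, detected on 3 untreated arrays, rose 3.75-fold (limma adjusted p 0.00700). Under normexp correction S100A9 (1.57), CLEC4E (0.61) and TPSB2 (0.46) were not called either. The part of leukocytes in the cytokine, chemokine and adhesion results was not tested.

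Of 29 immediate early transcription factors tested, 28 were higher and none lower, with a median of 3.23. Among the 8 named independently of the study's tables, 7 were higher. EGR1, a zinc finger factor induced within minutes, read -2.84, -2.83, -2.89 and -2.83 untreated and 1.22, 1.11, 1.19 and 0.76 with PHE, a rise of 15.1-fold (limma adjusted p 5.3e-08). The untreated values were nearly equal and the PHE values lay close together. NR4A1, an orphan nuclear receptor, rose 74.1-fold from -3.44, -2.96, -3.70 and -3.53 to 2.90, 2.46, 3.48 and 2.37, and ATF3, a stress-induced repressor, 77.6-fold from -2.70, -1.89, -2.18 and -3.73 to 3.89, 3.42, 4.31 and 2.99. In both genes all PHE arrays stood above all untreated arrays, and in ATF3 array 4 was the lowest of each group. JUNB, part of the AP-1 factor, rose 60.2-fold, CEBPD 47.0-fold and CEBPB, which together with CEBPD drives acute phase genes, 32-fold. JUN was not called on the probe used, at -0.01, while its other probes stood at 0.64 and 0.80.

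**Figure D2:**
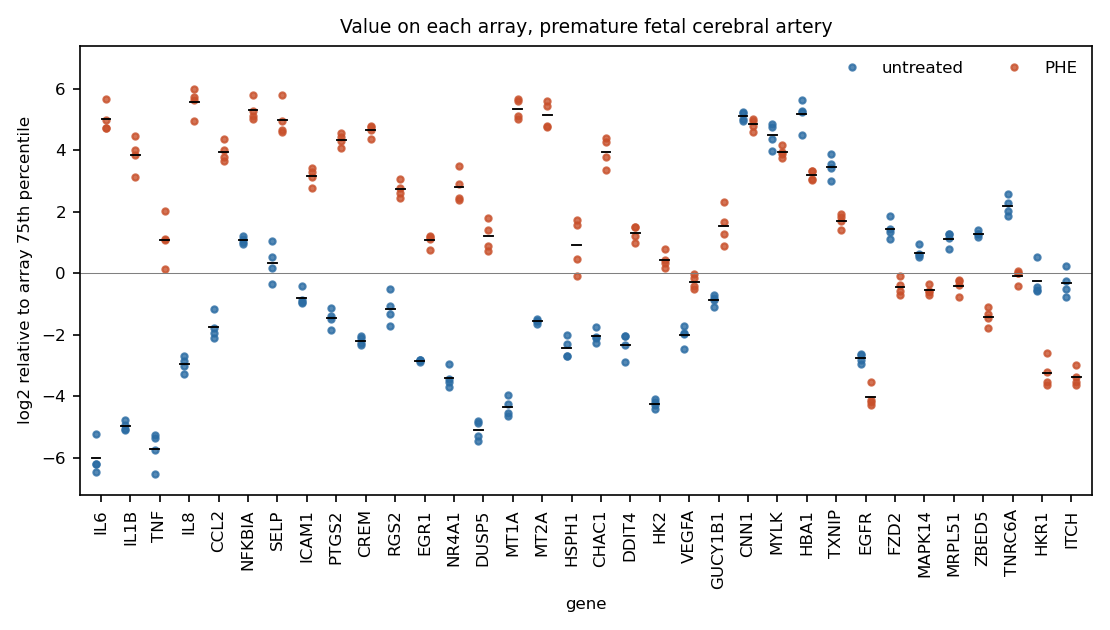
Each point is the log2 level of a gene on 1 array relative to that array's 75th percentile, with 4 untreated arrays in blue, 4 PHE arrays in red and the group mean as a black bar. Genes from IL6 to GUCY1B1 lie higher with PHE and genes from HBA1 to ITCH lower, while the smooth muscle genes CNN1 and MYLK overlap between the groups.

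Genes that answer adrenergic and cyclic AMP signals rose in 10 of 13 tested, and none fell (median 1.82). In all 76.9% of the list were called, beside 70.1% of all genes named through the study's tables. CREM, whose inducible form represses cyclic AMP response elements, read -2.04, -2.35, -2.26 and -2.11 untreated and 4.37, 4.79, 4.65 and 4.76 with PHE. It rose 114-fold (SE 0.12 in log2, limma adjusted p 6.9e-09), the smallest adjusted p of the named genes, and both groups were tight. PDE4B, a phosphodiesterase that breaks down cyclic AMP, was detected on 1 untreated array and read -6.33, -4.49, -5.43 and -5.98 there and 0.20, 0.66, 0.52 and 0.18 with PHE, a rise of 5.95 (SE 0.35, limma adjusted p 3.0e-06). RGS2, which shortens Gq signals such as those of alpha-1 receptors, read -1.07, -1.70, -1.34 and -0.53 untreated and 2.76, 3.07, 2.61 and 2.45 with PHE and rose 14.8-fold (limma adjusted p 4.2e-06). The kinase SIK1, induced by cyclic AMP, rose 14.3-fold. The alpha-1 receptors ADRA1A, ADRA1B and ADRA1D had no named probe, so the receptor itself was not analysed here.

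Feedback inhibitors of MAP kinases rose as well, with 17 of 20 list members higher and 2 lower (median 1.38). DUSP5, a nuclear phosphatase that inactivates ERK, was detected on no untreated array (-4.82, -4.86, -5.29 and -5.45) and on all PHE arrays (0.89, 0.71, 1.40 and 1.80), at least 69.3-fold higher (limma adjusted p 2.6e-07). DUSP4 rose 8.31-fold, the growth factor signal inhibitor SPRY2 4.46-fold, and ERRFI1, which blocks the EGF receptor, 25.2-fold. MAPK14, the p38 kinase itself, fell by 2.34-fold (limma adjusted p 8.2e-05), and SPRY3, above background on 1 PHE array, by 2.35-fold.

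In the prostaglandin list the 2 cyclooxygenases moved in opposite directions and 3 other members were not called (median -0.29). The inducible enzyme PTGS2 read -1.12, -1.49, -1.85 and -1.38 untreated and 4.08, 4.43, 4.56 and 4.30 with PHE and rose 55.8-fold (SE 0.17 in log2, limma adjusted p 4.7e-08). The constitutive enzyme PTGS1 read 1.95, 2.07, 1.94 and 1.67 untreated and 0.99, 1.21, 1.09 and 0.77 with PHE and fell by 1.86-fold (limma adjusted p 5.9e-04). Neither gene had overlapping groups. On its other probe PTGS2 stood at 3.98 in log2, against 5.80 on the probe used. With normexp background correction PTGS1 stood at -0.73 and was not called.

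Metal-binding and redox genes rose in 11 of 22 tested and fell in 4 (median 0.80). The share called, 68.2%, was near the 70.1% of all genes named through the study's tables. MT1A, a metallothionein that binds zinc and copper, was detected on 3 untreated arrays and read -4.55, -3.95, -4.64 and -4.24 untreated and 5.12, 5.01, 5.60 and 5.67 with PHE. It rose by 9.69 (SE 0.20, limma adjusted p 1.2e-08), and MT2A, from -1.54, -1.64, -1.56 and -1.48 to 4.76, 4.79, 5.42 and 5.59, rose 104-fold. In both genes PHE arrays 3 and 4 were the highest and the groups lay far apart. The metallothionein MT3, the only 1 of the 3 named independently of the study's tables, stood at -0.46 and was not called. HMOX2, a haem oxygenase, rose 6.80-fold and SLC3A2, the shared chain of the cystine and large amino acid transporters, 9.31-fold, though with normexp correction SLC3A2 stood at 1.59 and was not called. The inhibitor of thioredoxin TXNIP fell by 3.39-fold, from 3.42, 3.0, 3.55 and 3.89 to 1.69, 1.81, 1.40 and 1.92, and the microsomal glutathione transferases MGST1, MGST2 and MGST3 fell by 1.84-fold, 2.15-fold and 1.65-fold.

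Heat shock genes were called higher in 14 of 19 and lower in 1 (median 1.37). Called members made up 78.9%, beside 70.1% of all genes named through the study's tables. HSPH1, a large cytosolic chaperone, read -2.68, -2.01, -2.30 and -2.68 untreated and 1.57, -0.11, 1.75 and 0.46 with PHE and rose 10.1-fold (limma adjusted p 1.8e-04). PHE arrays 1 and 3 were higher than PHE arrays 2 and 4, and BAG3, a co-chaperone, had the same order (2.99, 1.95, 3.18 and 2.18), with a 6.53-fold rise. The summed level of the list read 41.4, 44.3, 48.3 and 44.7 untreated and 133, 75.4, 182 and 90.6 with PHE, again highest on PHE arrays 1 and 3. The chaperone HSPA4, detected on no untreated array, rose by at least 4.49 in log2. The co-chaperones DNAJB6 and DNAJA1 rose 4.14-fold and 2.93-fold, and HSPBAP1, which binds a small heat shock protein, fell by 3.41-fold and was detected on 2 PHE arrays.

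Of 34 genes of the endoplasmic reticulum stress and amino acid response, 31 were higher and 1 lower (median 1.54), and all 7 that were named independently were higher. CHAC1, a glutathione-degrading enzyme induced by ATF4, read -2.10, -2.09, -2.27 and -1.76 untreated and 3.78, 4.38, 4.26 and 3.37 with PHE and rose 64.1-fold (limma adjusted p 1.9e-07). The groups did not overlap. CTH, which makes cysteine, rose 21.6-fold, the mTOR inhibitor DDIT4 12.3-fold, and HERPUD1, of protein degradation at the reticulum, 3.88-fold. PPP1R15A, which restores translation after stress, was at least 10.1-fold higher, but with normexp correction it stood at 0.98 and was not called. The arginine transporter SLC7A1 rose 7.95-fold, while its relative SLC7A3 was the member that fell, by 2.03-fold.

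Genes of hypoxia and glucose metabolism were called higher in 12 of 23 and lower in 5 (median 0.64). The share called, 73.9%, was near the 70.1% of all genes named through the study's tables. HK2, the inducible hexokinase of the first step of glycolysis, was detected on 3 untreated arrays and read -4.08, -4.19, -4.29 and -4.41 untreated and 0.43, 0.17, 0.80 and 0.33 with PHE, a 25.6-fold rise (limma adjusted p 7.0e-08). HK1 rose 3.90-fold, the high-affinity glucose transporter SLC2A3 8.77-fold and the oxygen-regulated factor HIF1A 3.87-fold. HIF1A lost its call with the spread taken from all 32 arrays and with normexp correction (1.10). Among the 5 lower members, PPP1R3B, which targets a phosphatase to glycogen, stood at -2.08 and the glucosyl donor enzyme UGP2 at -0.73. The glycogen phosphorylase PYGL stood at -0.59 and the transporter SLC2A4 at -1.09. No list of glycogen genes was tested. VHL, which marks HIF1A for breakdown, fell by 1.81-fold (limma adjusted p 2.8e-04). The calls of PYGL and SLC2A4 rested on single arrays: PYGL was lost without untreated array 1 (-0.54) or PHE arrays 2 (-0.57) or 3 (-0.55), and SLC2A4, detected on 3 PHE arrays and with overlapping groups, without untreated arrays 1 (-1.0), 3 (-1.01) or 4 (-0.99). PYGL was also lost with the mean of its probes (-0.51), and at -0.58 with the deposited matrix and with outlier spots kept.

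Growth factor and angiogenesis genes were divided, with 15 of 32 higher, 5 lower and 12 not called (median 0.27). The share called, 62.5%, was near the 63.0% of all genes with a symbol. VEGFA, the main endothelial growth factor, read -1.71, -2.47, -1.93 and -1.97 untreated and -0.52, -0.15, -0.41 and -0.02 with PHE, a 3.36-fold rise (limma adjusted p 8.3e-05) between groups that did not overlap, but not called with normexp correction (1.10). Its receptor KDR, at -0.13, and the endothelial nitric oxide synthase NOS3, at -0.43, were not called (limma adjusted p 0.355 and 0.145). The ephrin receptor EPHA2, detected on 1 untreated array, rose by 4.40 in log2 and EPHA1 6.48-fold, while the ephrin ligands EFNB1 and EFNA4 fell by 3.17-fold and 2.40-fold. FGFR2 rose 3.41-fold, and the EGF receptor EGFR fell from -2.65, -2.95, -2.61 and -2.81 to -4.19, -4.12, -4.28 and -3.53, by 2.42-fold (limma adjusted p 3.9e-04). SOX18, an endothelial transcription factor, fell by 2.99-fold, being above background on 3 PHE arrays. FGF1, detected on 3 PHE arrays, fell by 1.82-fold with overlapping groups, and each fit that left out an array other than PHE array 2 lost its call (log2 -0.98, -0.81, -0.88 and -0.79 without untreated arrays 1 to 4, and -0.89, -0.96 and -0.53 without PHE arrays 1, 3 and 4).

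Matrix genes rose in 13 of 25 tested and fell in 1 (median 0.65). Called members made up 56%, under the 63.0% of all genes with a symbol. The interstitial collagen genes COL1A1, COL1A2 and COL3A1 rose 2.73-fold, 3.70-fold and 2.49-fold, and COL7A1, of anchoring fibrils, 3.36-fold. COL1A1 and COL3A1 lost their calls with the spread taken from all 32 arrays. TNFAIP6, a hyaluronan-binding protein induced by cytokines, read 0.94, 1.64, 0.89 and 1.64 untreated and 5.14, 4.89, 4.47 and 5.02 with PHE and rose 12.2-fold (limma adjusted p 4.2e-06). All its PHE arrays stood well above its untreated arrays. The aggrecan-cleaving protease ADAMTS4, detected on 2 untreated arrays, rose 5.10-fold, but with normexp correction it stood at 0.49 and was not called. HYAL2, a hyaluronidase, fell by 1.52-fold, a call lost without untreated array 2 (-0.57) or PHE array 3 (-0.56).

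Of 29 genes of TGF-beta, BMP, Notch and Wnt signalling, 12 were higher and 4 lower (median 0.48). That median was the value of INHBA, the most abundant member, which was not called on the probe used. Its other probes ranged from near this value to several log2 units higher, so the size of its change is not settled. The decoy receptor BAMBI read 0.23, 0.73, 0.04 and -0.31 untreated and 3.37, 3.82, 3.75 and 3.38 with PHE and rose 10.6-fold (limma adjusted p 4.8e-06). The SMAD repressor TGIF1 rose 4.67-fold and the activin inhibitor FSTL3 3.96-fold, whereas a further activin inhibitor, FST, fell by 1.67-fold with overlapping groups. The Wnt receptor FZD2 fell by 3.68-fold, PYGO2, a co-activator of Wnt targets, by 3.82-fold and the BMP receptor BMPR2 by 1.96-fold. In FZD2 every untreated array (1.86, 1.34, 1.11 and 1.43) was above every PHE array (-0.10, -0.58, -0.39 and -0.71).

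Of 14 contraction genes tested, 5 were higher, 1 was lower and 8 were not called, with a median of 0.00. The smooth muscle markers CNN1 (5.25, 5.02, 4.93 and 5.22 untreated, 4.59, 5.00, 4.96 and 4.79 with PHE) and MYLK (4.76, 4.36, 3.98 and 4.86 untreated, 3.95, 3.86, 3.74 and 4.16 with PHE) were detected on all 8 arrays. Neither was called, at -0.27 and -0.56, and their groups overlapped. MYLK was lower with PHE in each same-numbered pair, and the summed level of both read 65.0, 52.8, 46.3 and 66.3 untreated and 39.7, 46.5, 44.6 and 45.6 with PHE, also lower in each pair. MYLK was called lower with median scaling (-0.67) and without untreated array 3 (-0.73) or PHE array 4 (-0.63). The other smooth muscle markers of the list had no named probe. GUCY1B1, a subunit of the nitric oxide receptor, rose 5.28-fold, from -0.86, -0.82, -0.70 and -1.11 to 1.67, 1.26, 0.89 and 2.30, with no overlap. The calcium pump ATP2A2 rose 3.23-fold, the small GTPase RHOB 2.07-fold and the phosphatase catalytic subunit PPP1CC 2.31-fold. The myosin light chain MYL12B fell by 1.56-fold, a call lost without untreated array 4 (-0.58) or PHE array 1 (-0.49).

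**Figure D3:**
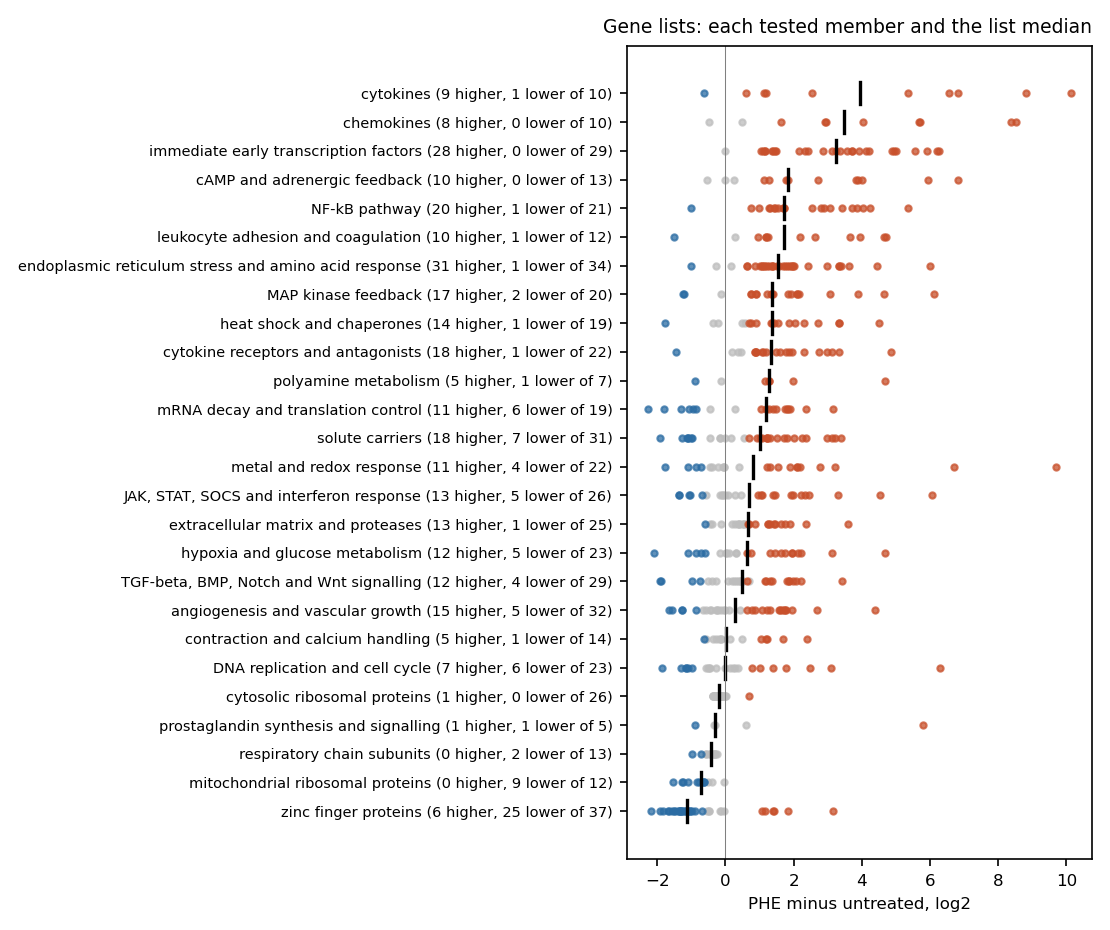
Each point is a tested member of a list at its log2 difference, PHE minus untreated, or at its lower bound where only 1 group detected it; red was called higher, blue lower and grey not called, and the black bar is the list's median. Medians run from 3.95 for cytokines to -1.13 for zinc finger proteins, with contraction genes near 0.

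Regulators of mRNA stability and translation split into a rising and a falling set, with 11 of 19 higher and 6 lower (median 1.18). ZFP36, which binds AU-rich elements of cytokine mRNAs and speeds their decay, read 1.40, 1.16, 1.36 and 1.44 untreated and 4.54, 4.68, 4.85 and 3.91 with PHE and rose 8.90-fold (limma adjusted p 3.7e-06). On its other probe ZFP36 stood at 6.47 in log2, against 3.15 on the probe used. TOB1, which recruits the deadenylase, rose 5.13-fold, the ribosome rescue factor PELO 3.69-fold and the release factor ETF1 3.57-fold. TNRC6A, the scaffold of microRNA silencing, read 2.56, 1.85, 2.04 and 2.29 untreated and 0.07, -0.40, 0.00 and 0.00 with PHE, and fell by 4.81-fold (limma adjusted p 1.4e-05). DICER1, which cuts microRNA precursors, fell by 2.08-fold, and the deadenylase subunits PAN2 and CNOT8 and the decapping activator DDX6 by 2.49-fold, 1.93-fold and 1.83-fold. Other members of the same machinery rose, the silencing effector AGO2 by 1.26 and the deadenylase subunit CNOT2 by 1.48 in log2. EIF4G1, a scaffold of cap-dependent translation, fell by 3.47-fold on the probe used, but its second probe stood at 0.36, so its direction is not settled.

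Polyamine genes rose in 5 of 7 and fell in 1 (median 1.27). ARG2, the arginase that supplies ornithine, read -4.04, -4.33, -3.68 and -3.86 untreated and 0.67, 0.65, 0.75 and 0.74 with PHE and rose 25.6-fold (limma adjusted p 5.3e-08). ODC1, the rate-limiting decarboxylase, rose 2.40-fold, AMD1 2.22-fold and AZIN1, which protects ODC1 from breakdown, 3.96-fold. SAT2, a member of the acetyltransferase family, fell by 1.86-fold.

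Cell cycle genes went both ways, 7 of 23 higher and 6 lower (median -0.02). Under some settings more were lower than higher. The share called, 56.5%, was under the 63.0% of all genes with a symbol. CDKN1A, the p21 inhibitor of cyclin-dependent kinases, read -1.76, -2.39, -2.52 and -2.57 untreated and 3.50, 4.04, 4.34 and 4.04 with PHE and rose 78.3-fold (limma adjusted p 1.5e-07). Its groups were far apart. The stress kinase PLK3 rose 8.57-fold (1.67 and not called with normexp correction), the replication helicase subunit MCM2 by 2.49 in log2 and the mitotic cyclin CCNB2 3.42-fold. CDC6, which licenses replication origins, fell by 2.24-fold and was detected on 3 PHE arrays, the flap nuclease FEN1 by 1.98-fold, CDCA7 by 2.22-fold, the mitotic kinesin KIF15 by 3.62-fold (detected on 1 PHE array), the inhibitor CDKN2D by 2.47-fold and SKP2, which marks cell cycle inhibitors for breakdown, by 2.14-fold.

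Of 37 zinc finger proteins, taken by their symbols, 25 were lower and 6 higher (median -1.13). All but 1 of the 37 were named through tables that hold only genes the study lists as altered, and ZFP36, the single member named independently, rose. ZNF263 fell by 4.55-fold, ZNF347 by 3.59-fold, ZNF512 by 2.83-fold and ZFP161 by 2.35-fold. ZNF706 rose 2.09-fold. Detected on 3, 1 and 2 untreated arrays, ZFP36L2 rose 2.61-fold, ZNF45 3.56-fold and ZKSCAN1 2.66-fold, and with normexp background correction these stood at 0.01, 0.01 and -0.01 and were not called. ZNF281, also detected on 2, rose 2.22-fold with overlapping groups, turned to -0.27 with normexp correction, and lost its call without untreated arrays 1 (1.13) or 4 (0.75) or PHE arrays 2 (1.09), 3 (1.10) or 4 (1.00).

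Of the 42 falls of at least 4-fold as fitted, 21 had no symbol. ITCH, a ubiquitin ligase, read 0.24, -0.78, -0.51 and -0.27 untreated and -3.65, -3.37, -3.55 and -2.97 with PHE, a fall of 8.31-fold (limma adjusted p 1.2e-05). HKR1, a zinc finger repressor, read 0.52, -0.56, -0.57 and -0.45 untreated and -3.54, -3.21, -3.62 and -2.58 with PHE and fell by 7.87-fold (limma adjusted p 7.1e-05). In both genes untreated array 1 was the highest, and the groups stayed apart, but the second probe of HKR1 stood at -1.02, a smaller fall. C9H6ORF203 fell by 6.99-fold, ZBED5, a gene derived from a transposase, by 6.45-fold, RP9 by 5.89-fold, CCDC8 by 4.85-fold and C17orf59 by 4.15-fold. SUGP2, a protein with a splicing factor domain, fell by 4.89-fold and was above background on 3 PHE arrays. Of genes that PHE took below detection on all arrays, PDLIM3, a cytoskeletal LIM protein, was at least 3.98-fold lower, SLC16A6, of the monocarboxylate transporter family, at least 3.80-fold, the chromatin protein L3MBTL1 at least 3.67-fold, citrate synthase (CS) at least 3.50-fold and MZB1 at least 2.76-fold. With normexp background correction these stood at -1.38, -1.30, -1.36, -1.13 and -1.15 and were not called.

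Mitochondrial ribosomal proteins were lower in 9 of 12 and higher in none (median -0.71). MRPL51 read 1.29, 1.26, 0.80 and 1.15 untreated and -0.22, -0.40, -0.78 and -0.26 with PHE and fell by 2.91-fold (limma adjusted p 9.0e-05), and MRPL44, MRPS34 and MRPL43 fell by 2.40-fold, 2.39-fold and 1.78-fold. None of these groups overlapped, and all 12 members were named through the study's tables. Respiratory chain subunits were lower in 2 of 13 (15.4%) and higher in none (median -0.43), beside 15.1% called lower over all genes. All but 2 of the 13 subunits had a symbol matched through the study's tables. Among the 1576 genes named in that way 479 were called lower, a larger share than in this list. The 2 lower subunits were NDUFV2 of complex I, which fell by 1.96-fold, and the copper carrier COX17, by 1.66-fold. Cytosolic ribosomal proteins were called in 1 of 26 (RPS4X, 1.62-fold higher; median -0.19). With no fold threshold 1 of the 26 was higher and 6 were lower.

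Transporters of the solute carrier family were called higher in 18 of 31 and lower in 7 (median 1.02). Only 31 of the 47 with a probe passed the background filter, and 80.6% of them were called, beside 70.1% of all genes named through the study's tables. Of the 9 named independently 4 were higher and 1 lower, with a median of 0.15. Besides SLC2A3, SLC3A2 and SLC7A1 above, the magnesium transporter SLC41A1 rose 4.77-fold (0.94 and not called with normexp correction), and SLC3A1, of cystine uptake, fell by 2.19-fold, SLC7A13 by 2.44-fold, SLC10A3 by 2.12-fold and SLC16A5 by 1.98-fold. Outside this family SLCO4A1, an organic anion transporter, was detected on no untreated array and was at least 69.1-fold higher (limma adjusted p 3.1e-07).

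Of 2 erythrocyte markers tested, 1 was lower and none higher. The haemoglobin chain HBA1 read 5.23, 5.62, 4.50 and 5.28 untreated and 3.04, 3.34, 3.33 and 3.06 with PHE and fell by 3.90-fold (limma adjusted p 1.3e-04), while HBB, at -0.71, was not called (limma adjusted p 0.0644). Its second probe stood at -1.48. HBB was called with the replicate number as a block (limma adjusted p 0.00345), with median scaling (-0.83), and without untreated array 2 (-0.96) or PHE array 4 (-0.86). The summed level of both chains, most of it HBA1, read 41.6, 51.7, 28.3 and 44.7 untreated and 11, 11.9, 12.6 and 11.9 with PHE. All untreated arrays were thus above all PHE arrays in haemoglobin, and its part in the other changes was not tested.

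Of 4 endothelial markers 1 was called, ENG, 1.55-fold higher; its call was lost without untreated array 4 (0.58), with median scaling (0.52), with quantile normalization (0.53) and with the spread from all 32 arrays, and normexp correction turned it to -0.20. The summed level of the endothelial markers read 2.01, 2.46, 1.65 and 1.89 untreated and 1.73, 1.97, 1.44 and 1.45 with PHE, lower with PHE in each same-numbered pair. The pericyte marker PDGFRB stood at -0.01. Of 6 fibroblast markers 4 were higher, the collagen genes above and DPT (2.60-fold), while DCN, the most abundant, stood at -0.47 under the fold threshold, and the summed level of the list read 102, 96.8, 102 and 94.0 untreated and 99.6, 106, 81.9 and 83.8 with PHE. Of 4 neuronal markers 2 were higher, the tubulin TUBB3 by 2.09-fold and TAC1, the precursor of substance P, by 11.2-fold from 3 untreated arrays that detected it, and STMN2 stood at -0.49, or at -0.60 and called lower with median scaling; the summed level, most of it TUBB3, read 10.4, 6.87, 6.50 and 7.74 untreated and 18.8, 12.4, 19.5 and 14.8 with PHE, so that all PHE arrays were above all untreated arrays. Of 5 glial markers 2 were lower, GFAP by 1.65-fold and MBP by 2.12-fold, with S100B (0.53) and CNP (0.50) not called and a summed level of 1.29, 1.09, 1.13 and 1.32 untreated and 1.02, 1.47, 1.40 and 1.72 with PHE. S100B was the most abundant of the glial markers. GFAP was lost without untreated array 1 (-0.53), S100B was called higher without PHE array 1 (0.93) and CNP without PHE array 2 (0.65). The adipocyte markers LPL (0.51) and PLIN1 (-0.41) were not called, except LPL without untreated array 3 (0.75), and LPL was detected on 2 untreated arrays. No platelet marker had a named probe, and the part of these cells in the results was not tested.

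**Figure D4:**
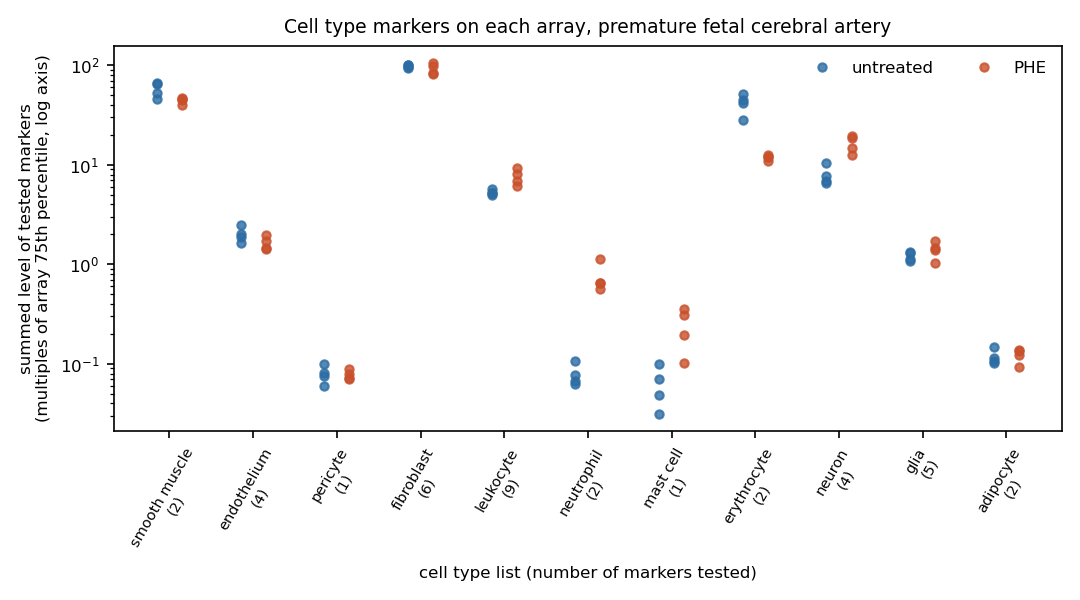
Each point is 1 array's summed level of a cell type's tested markers, in multiples of the array's 75th percentile on a log axis, untreated in blue and PHE in red, with the number of markers in parentheses. Erythrocyte levels were 28.3 to 51.7 untreated and at most 12.6 with PHE, neutrophil levels were higher with PHE, and adipocyte levels overlapped.

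Normexp background correction also took the calls of ATP2A2 (1.0), BMPR2 (-0.79), CCRL2 (-0.94), CDC6 (-0.86), CNOT8 (-0.90), DDX6 (-0.72), DPT (0.62), EFNA4 (-1.14), EGFR (-0.95) and FEN1 (-0.86). The same held for FGF1 (-0.76), FGFR2 (1.05), FST (-0.53), GFAP (-0.86), HSPBAP1 (-1.06), HYAL2 (-0.54), IFI35 (-0.54), IFNA1 (-0.52), KIF15 (-1.19) and MBP (-0.88). Also no longer called were MGST2 (-0.89), MGST3 (-0.68), MYL12B (-0.41), PARP9 (-0.92), PIM2 (-1.11), PYGL (-0.52), RPS4X (0.51), SERPINC1 (-1.03), SLC10A3 (-0.92) and SLC16A5 (-0.84), and so were SLC2A4 (-0.87), SLC7A13 (-1.08), SLC7A3 (-0.84), SOX18 (-1.10), SP110 (-1.09), SPRY3 (-1.02), TAP2 (1.06) and UGP2 (-0.52). With the spread taken from all 32 arrays, besides HIF1A, ENG and the 2 collagen genes above, the calls of CD14, CD68, CDC6, COX17, DPT, FEN1, FGF1, FST, GFAP, IFNA1, MBP, MGST1, MGST2, MYL12B, PTGS1, RPS4X, SERPINC1, SLC16A5, SLC2A4, SLC7A13, SLC7A3, SOX18, SPRY3, TPSB2, ZFP36L2 and ZNF281 were lost. The methods' t-test with adjustment ended the calls of CDC6, DPT, FGF1, GFAP, MBP, SLC2A4, SOX18 and ZNF281. FGF1 and ZNF281 were also lost with the unadjusted t-test and with no filter, and ZNF281 with quantile normalization and median scaling.

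Gene names carry a limit of their own. Of the genes tested, 430 had a symbol from the reference table or the array file, of which 159 were called (37%), and 1576 a symbol matched through the study's supplementary tables, of which 1104 were called (70.1%). The tables hold only genes the study lists as altered, so list counts that rest on them are not independent evidence of how often a list changed, and 1603 of the called probes had no symbol. With the median of each array as the scale, the share of higher genes among those called was 35.3% (1123 of 3185) against 48.5%, and the median over all genes was -0.21 in place of -0.09. With normexp background correction that median was -0.22, and of the 184 named genes called, 119 kept their call. Other probes of a named gene could differ by over 1 log2 unit from the probe used: PTGS2 stood at 3.98 on its other probe against 5.80, IRF8 at 4.91 against 3.29, CEBPB at 6.44 against 5.00, ZFP36 at 6.47 against 3.15, RHOB at 2.13 against 1.05 and IL1A at 7.21 against 8.72. SELP stood at 3.09 and 3.22 against 4.65, EGR1 at 4.59 and 6.39 against 3.92, and VEGFA at 2.35 and 2.78 against 1.75. Among members named independently, 5 of 9 solute carriers, 8 of 17 angiogenesis genes, 5 of 15 genes of TGF-beta and related signals, 3 of 6 matrix genes and 3 of 6 metal and redox genes were called, higher or lower. None of 3 cell cycle genes and 2 of 6 contraction genes were called. Medians of these members were -0.13 for angiogenesis, -0.14 for metal and redox and -0.23 for contraction. They were 0.15 for solute carriers, 0.26 for the cell cycle, 0.38 for TGF-beta and related signals and 0.55 for matrix genes.

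The difference between the premature and the newborn response was tested as an interaction over 16 arrays. Of 9903 genes tested, 66 differed (0.666%), 53 with a more positive and 13 with a more negative effect in the premature fetus, and in 54 of the 66 the change was the larger in the premature fetus. With median scaling 42 differed, 25 more positive (59.5% in place of 80.3%) and 17 more negative. With the replicate number as a block 330 differed, 222 more positive (67.3%) and 108 more negative. All premature arrays lay on 1 slide and all newborn arrays on another, so age and slide cannot be told apart in this comparison.

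Among genes with a symbol, CEBPB, CEBPD, IFRD1, RGS2 and ERRFI1 had the smallest adjusted p. CEBPB rose by 5.00 in the premature fetus and by 2.62 in the newborn lamb, a difference of 2.38 (SE 0.22, limma adjusted p 1.4e-04). On the newborn arrays it read -0.36, -0.46, -0.34 and -0.56 untreated and 2.22, 2.03, 2.03 and 2.46 with PHE, against -1.88, -2.0, -2.33 and -2.37 untreated and 2.76, 3.11, 3.05 and 2.50 with PHE in the premature fetus, so all untreated premature arrays were below all untreated newborn arrays. CEBPD rose by 5.55 and 3.04 (difference 2.52, limma adjusted p 4.4e-04), and IFRD1, a transcriptional co-regulator, by 4.48 and 2.86 (difference 1.62). The Gq signal terminator RGS2 rose by 3.88 in the premature fetus and by 1.0 in the newborn lamb (difference 2.88, SE 0.39, limma adjusted p 0.00319), from newborn values of 0.93, 1.78, 0.55 and 0.98 untreated and 1.74, 2.22, 1.81 and 2.48 with PHE. Here too the untreated premature arrays were the lower ones. ERRFI1 differed by 1.85.

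Further genes with a larger rise in the premature fetus were PPP1R15A (4.25 and 0.99), ATF3 (6.28 and 2.95), EGR1 (3.92 and 1.76), IL1A (8.72 and 5.88), IRF1 (6.05 and 4.11) and NFKBIA (4.24 and 2.40), each pair in log2 for the premature fetus and the newborn lamb. PPP1R15A and IL1A were detected on no untreated premature array, and IL1A on no untreated newborn array. Dim spots entered the fits of age differences as measured, so such differences are not bounds. Among the 13 genes with a more negative effect were MARCKSL1 (0.79 and 2.84), FZD5 (1.20 and 2.79), PRDM1 (1.59 and 3.1), ST3GAL1 (0.95 and 2.63) and SLPI (-0.96 and 1.62), in the same order of ages. In 18 of the 66 genes the effects had opposite signs, counted by sign alone however small the change. DUSP1, for example, rose by 2.11 in the premature fetus and stood at -0.17 in the newborn lamb. CXCL10, an interferon-induced chemokine detected on 3 untreated premature arrays, rose by 4.03 in the premature fetus and stood at -0.83 in the newborn lamb (difference 4.86, limma adjusted p 0.00743). Leaving out single arrays gave 37 to 70 genes: the count was 38, 41 and 39 without premature untreated arrays 1, 3 and 4, 37 without premature PHE array 3, and 43 and 41 without newborn PHE arrays 1 and 2.

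**Figure D5:**
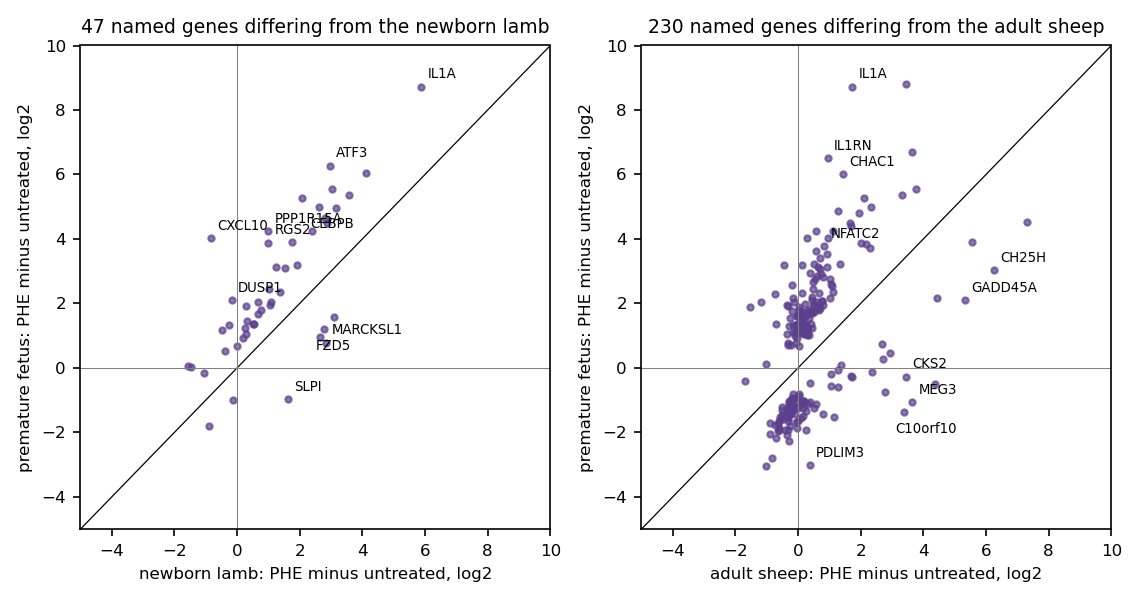
Each point is a gene with a symbol whose PHE effect differed between ages, 47 against the newborn lamb (left) and 230 against the adult sheep (right), with its log2 change in the other age on the x axis and in the premature fetus on the y axis; the line marks equal changes. Points above the line rose more, or fell less, in the premature fetus, among them IL1A in both panels, the genes were chosen for their distance from the line, and dim spots are drawn as measured.

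All premature arrays were on 1 slide and the adult arrays on 2 others, with 2 of the 4 untreated adult arrays apart from all adult PHE arrays, so age and slide cannot be told apart here either. Against the adult sheep 418 of 10181 genes differed (4.11%), 230 more positive and 188 more negative in the premature fetus, and in 371 of them the premature change was the larger. With slide as a block 279 differed, of which 208 were among the 418. The effects had opposite signs in 183, counted by sign alone however small the change at either age. IL1B rose by 8.82 in the premature fetus and stood at 3.45 in the adult (difference 5.37, limma adjusted p 0.0149). IL1A and IL1RN also differed, by 6.99 and 5.56 as fitted, but both lay below detection on all untreated premature arrays, and in the adult on 6 and 5 of 8 arrays they lay below the dimmest detected signal. In the cytokine list 3 of 10 members, in the chemokine list 3 of 10 and in the endoplasmic reticulum list 10 of 34 had a more positive effect in the premature fetus, and none of these lists had a member with a more negative one. All list members have a symbol, as had 230 of the 418 genes, while 11862 of the 15008 probes had none. The 4.11% over all genes is thus lower than the share among genes with a symbol. The 3 cytokines were IL1A, IL1B and CSF2. Of these, IL1A and CSF2 passed the background filter through the premature PHE arrays alone, so the cytokine count is partly fixed by the filter.

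The calcium-dependent factor NFATC2 was at least 11-fold higher with PHE in the premature fetus, but with normexp correction it stood at 1.27 and was not called. On all 8 adult arrays it lay below the dimmest detected signal, so its fitted difference of 2.93 is no measure of size. As fitted, PPP1R15A differed by 3.68, CHAC1 by 4.56, DDIT4 by 3.04, NFKBIA by 3.11 and MT2A by 3.07. PDLIM3 fell in the premature fetus (-3.03) and stood at 0.38 in the adult, and CXCL16 rose by 2.95 against 0.37. EGR1 was the reverse of most, with a rise of 3.92 in the premature fetus and 5.55 in the adult (difference -1.63, limma adjusted p 0.0434). AKIRIN1, a nuclear co-factor of NF-kB target genes, rose by 1.10 in the premature fetus and stood at -0.16 in the adult. C10orf10 fell in the premature fetus (-1.36, with overlapping groups) and stood at 3.38 in the adult.

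Single arrays moved this count too. It lay between 206 and 473 over the arrays left out, with 235, 252 and 218 without premature untreated arrays 1, 3 and 4, and 206 and 241 without premature PHE arrays 2 and 3. Quantile normalization gave 867 genes and median scaling 251.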

How the data were processed

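Single-colour arrays of middle cerebral artery RNA were read from the array files, whose values are, per the file headers, background-subtracted processed spot intensities (gProcessedSignal) that the authors made with Agilent Feature Extraction 9.5.3.1. Spots flagged as outliers were set missing, values were taken as log2 and each array's 75th percentile was subtracted. A gene was its probe with the highest mean signal, tested where well above background on all 4 arrays of either group. limma 3.58.1 (R 4.3.3) compared 4 PHE with 4 untreated arrays, and interactions compared this effect with that of the newborn and the adult. Calls needed a Benjamini-Hochberg adjusted p under 0.05 and 1.5-fold. The normexp alternative used an offset of 50. Tables and figures used Python 3.11.15, numpy 2.4.6, pandas 2.3.3 and matplotlib 3.10.9.

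Names came from the reference table (656 probes), the array file (758) or by matching values in the study's supplementary tables within 0.1% (1732); 11862 probes stayed unnamed. Named genes were the largest changes, the called members of each list with the smallest adjusted p and those that moved against its majority, some other list members, marker genes, the top interaction genes and genes the study names. Members and lists were chosen with earlier results of these data known. Same-numbered premature arrays deviated together (r 0.41, 0.50, 0.41 and 0.52; other pairs -0.31 to -0.05), so the numbers pair the arrays by this check, not by a stated design. Untreated arrays filled row 1 and PHE arrays row 2 of the slide, so row and treatment cannot be told apart. The near-term arrays entered no comparison, apart from the alternative that fits all 32 arrays.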

Additional observations from a re-analysis of the deposited data

Results flagged for a closer look

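In 20 of 420 groups of 4 arrays, 1 array stood far from the other 3, judged by the gap to its nearest neighbour as a share of the group's range. Chance alone marks about 1 in 20 groups. An array was far below the rest for EGR1 on untreated array 3 (-2.89, the others -2.84 to -2.83, ratio 0.843), ERRFI1 on PHE array 1 (4.89, the others 5.45 to 5.49, ratio 0.943), IFI35 on untreated array 2 (0.52, the others 1.01 to 1.07, ratio 0.902) and MYL12B on PHE array 1 (1.36, the others 1.90 to 1.97, ratio 0.885). The next low ones were PAN2 on PHE array 2 (-1.91, the others -1.66 to -1.64, ratio 0.921), PLIN1 on PHE array 2 (-4.98, the others -4.34 to -4.30, ratio 0.936), RPS4X on untreated array 3 (-0.17, the others 0.11 to 0.14, ratio 0.904) and RPS4X on PHE array 1 (0.68, the others 0.78 to 0.79, ratio 0.9). Low as well were S100B on untreated array 2 (-1.38, the others -1.20 to -1.17, ratio 0.864), SLC2A3 on untreated array 2 (0.50, the others 1.26 to 1.36, ratio 0.89), SLC2A4 on untreated array 2 (-4.26, the others -3.21 to -3.13, ratio 0.93) and TNRC6A on PHE array 2 (-0.40, the others 0.00 to 0.07, ratio 0.853). An array was far above the rest for DNAJB6 on untreated array 2 (0.65, the others 0.54 to 0.56, ratio 0.857), FSTL3 on PHE array 3 (1.17, the others 0.89 to 0.91, ratio 0.941), HKR1 on untreated array 1 (0.52, the others -0.57 to -0.45, ratio 0.888) and MGST1 on PHE array 1 (-0.91, the others -1.23 to -1.19, ratio 0.871), and for ODC1 on untreated array 4 (2.17, the others 1.99 to 2.01, ratio 0.855), PYGO2 on untreated array 1 (-0.34, the others -0.87 to -0.78, ratio 0.832) and ZNF512 on PHE array 1 (1.14, the others 0.90 to 0.92, ratio 0.884). The summed level of neutrophil markers was also far above the rest on PHE array 2 (1.14, the others 0.56 to 0.655, ratio 0.836). The cause was not tested.

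The PHE effect differed from that in the newborn lamb for 17 of the genes chosen by rule, given here as premature minus newborn in log2. More positive in the premature fetus were ATF3 (3.33), PPP1R15A (3.26), RGS2 (2.88), IL1A (2.84), CEBPD (2.52), CEBPB (2.38), EGR1 (2.15) and IRF1 (1.94). So were ERRFI1 (1.85), NFKBIA (1.83), NFKBIZ (1.81), IFRD1 (1.62), PLK3 (1.56), TOB1 (0.99), DNAJB6 (0.97) and HERPUD1 (0.89), while EIF4G1 was more negative on the probe used (-0.91), its second probe having moved the other way with PHE. PPP1R15A and IL1A were detected on no untreated premature array, so their values are not bounds. CXCL10 (4.86), named beside them in the report, differed as well. Age and slide cannot be told apart in this comparison.

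Against the adult sheep the effect differed for 49 of the genes chosen by rule, as premature minus adult in log2. More positive in the premature fetus were IL1A (6.99), IL1RN (5.56), IL1B (5.37), CHAC1 (4.56), PPP1R15A (3.68), CLEC4E (3.67), CSF2 (3.58), NFKBIA (3.11), MT2A (3.07) and DDIT4 (3.04). The same held for NFATC2 (2.93), IFRD1 (2.84), SLC3A2 (2.70), CEBPB (2.66), CXCL16 (2.59), TPSB2 (2.24), CXCL1 (2.18), NFKBIZ (2.04), RGS2 (1.87) and CEBPD (1.79), and for HMOX2 (1.76), FGFR2 (1.70), IKBKB (1.46), DNAJB6 (1.44), ATP2A2 (1.26), ETF1 (1.25), TOB1 (1.24), HERPUD1 (1.16), SPRY2 (1.13) and PPP1CC (0.99). More negative in the premature fetus were PDLIM3 (-3.40), SERPINC1 (-2.67), ITCH (-2.04), TNRC6A (-1.98), C9H6ORF203 (-1.97), SPRY3 (-1.74), PPP1R3B (-1.72), EGR1 (-1.63), EIF4G1 (-1.55) and ZNF263 (-1.48), followed by EFNB1 (-1.34), PYGO2 (-1.34), SLC3A1 (-1.24), MRPL51 (-1.21), MALT1 (-1.20), C17orf59 (-1.17), ZNF512 (-1.10), ZFP161 (-0.90) and PAN2 (-0.80). IL1A, IL1RN, CLEC4E, CSF2, NFATC2 and PPP1R15A were detected on no untreated premature array and PDLIM3 on no premature PHE array, so their differences are not bounds. NFATC2 and CSF2 also lay below the dimmest detected signal on all 8 adult arrays. C10orf10 (-4.74) and AKIRIN1 (1.26), which the report names, differed as well. EIF4G1 is given on the probe used. Premature and adult arrays were on different slides, so age and slide cannot be told apart.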

How the results depend on the processing

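The count of genes altered in the premature fetus was 2866. It was 1714 with the spread taken from all 32 arrays, 4683 with no fold threshold and 1095 with normexp background correction, which shared 1052 genes with the 2866. It lay between 2420 and 3185 for the methods' t-test with and without adjustment, the replicate number as a block, unadjusted limma p, median scaling, quantile normalization, both other filters, the mean of a gene's probes, the deposited matrix and outlier spots kept. Leaving out single arrays gave 2673 to 3011. Slide could not be used as a block, since all 8 arrays shared 1 slide. Normexp correction added an offset of 50 to each intensity, which shrinks the log2 changes of dim spots by construction. Removal of the fold threshold adds genes by construction. Beyond this the cause of the moves was not tested.

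The 66 genes that differed from the newborn lamb became 330 with the replicate number as a block, 2 with all 32 arrays, 746 with unadjusted p, 7 with normexp correction, 42 with median scaling and 40 with no filter. Without 1 array the count was 37 to 70: 38, 41 and 39 without premature untreated arrays 1, 3 and 4, 37 without premature PHE array 3, and 43 and 41 without newborn PHE arrays 1 and 2. The 418 genes that differed from the adult sheep became 100 with all 32 arrays, 1580 with unadjusted p, 51 with normexp correction, 867 after quantile normalization, 279 where slide was the block (208 of them among the 418) and 251 after scaling to the median. Without 1 array the count was 206 to 473: 235, 252 and 218 without premature untreated arrays 1, 3 and 4, and 206 and 241 without premature PHE arrays 2 and 3. The cause was not tested.

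Of 184 called named genes, 174 were called in every fit that left out 1 array. The replicate block changed the call of HBB and of no other named gene. With normexp correction 119 kept their call. Of those that lost it, ENG (-0.20), ZKSCAN1 (-0.013) and ZNF281 (-0.27) stood at the opposite sign. The cell cycle list, with 7 higher and 6 lower, had more lower than higher with no fold threshold (15 called, 8 of them lower), normexp correction (7 called, 4 lower), median scaling (15, 8 lower), without untreated array 2 (16, 9 lower) and without PHE array 1 (15, 8 lower), against 13 called; over the arrays left out it had 13 to 16. With independent symbols alone the zinc finger list held 1 called gene, which rose, and with no fold threshold 7 cytosolic ribosomal genes were called, 6 of them lower. The cause was not tested.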
